A study of Mus musculus with 16 samples.

Results

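Sialyltransferases are Golgi enzymes that add sialic acid to the ends of sugar chains on proteins and lipids. Described here are 9 of them in mouse fat cell precursors: St3gal1, St3gal2, St3gal3, St3gal4, St3gal5, St3gal6, St6gal1, St6galnac4 and St6galnac6. These genes were chosen by their raw counts over the 4 groups of libraries, out of 41325 genes in all, and were found by gene name in both deposited tables. Because the counts chose them, their levels and fold changes below are a description, with a standard error and no p-value. The number of them that passed the threshold used for all genes is printed beside the share of all genes that did, and nothing is read from it. The cells were immortalized preadipocytes of wild-type C57Bl6/J mice, which turn into fat-laden adipocytes on differentiation. The 4 groups were IL-13 pre-treated cells at day 6 of differentiation, untreated cells at day 6, IL-13 pre-treated cells at day 0 and untreated cells at day 0, with 4 libraries each and 16 in all. IL-13 (interleukin-13, labelled Il13) was given for 16 h beforehand, and the labels do not say whether it stayed on the cells afterwards. All groups are of 1 strain, genotype and kind of immortalized cell, and whether the 4 libraries of a group stem from different cultures is not stated. A p-value here therefore reflects library-to-library spread alone, which could be technical.

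Every sialyltransferase uses CMP-sialic acid, made in the nucleus from sugar precursors and carried into the Golgi, as its donor. The family is sorted by the bond it makes and the sugar it extends. The St3gal enzymes cap galactose, St6gal1 caps galactose on N-glycans through another carbon, and the St6galnac enzymes add sialic acid to N-acetylgalactosamine. The St8sia enzymes extend sialic acid with more sialic acid. St3gal5 makes the ganglioside GM3, the main ganglioside of adipocytes, which is known there for dampening insulin receptor signalling. IL-13 is a type 2 cytokine that acts through Il4ra and Il13ra1 on the transcription factor Stat6.

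Library totals ran from 15253031 to 18112087 counts, and 15447 to 16201 genes had at least 1 count. At day 6 the 10 adipocyte markers summed to 27200 to 29100 CPM (counts scaled to library size) in IL-13 pre-treated cells and 25900 to 28000 CPM in untreated cells, against 518 to 539 CPM in IL-13 pre-treated and 531 to 570 CPM in untreated cells at day 0. All 10 were higher at day 6 in both series. The leukocyte markers summed to at most 11.9 CPM in any library, and the defining Ptprc and Adgre1 had 0 counts at day 6. The endothelial and epithelial markers summed to at most 3.43 and 0.309 CPM, and the muscle markers to at most 24.7 CPM. In bulk libraries such as these, fewer cells of a type and less RNA per cell cannot be told apart. One measure of library composition moved with IL-13. The mean log2 CPM of 25 nuclear-retained RNAs, an index of nuclear RNA, was 5.16 ± 0.107 in IL-13 pre-treated and 6.02 ± 0.351 in untreated cells at day 0 (SD, n = 4 each; exact permutation test, two-sided, p = 0.0286). At day 6 it was 5.59 ± 0.297 in IL-13 pre-treated and 6.59 ± 0.294 in untreated cells, with the same exact p of 0.0286, the smallest that 70 groupings allow. The index of the IL-13 and the untreated libraries did not overlap, at 5 to 5.25 against 5.56 to 6.36 at day 0 and 5.23 to 5.92 against 6.25 to 6.91 at day 6. Within a day index and IL-13 thus cannot be cleanly told apart. A value fitted with the index as a covariate does not measure the share due to either. The part of the index in the IL-13 differences below was not tested, and values fitted with the covariate stand beside them. Day 0 and day 6 were deposited as separate tables, so day and table cannot be told apart.

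The 9 genes made up nearly all sialyltransferase RNA in these cells. In the deposited TPM values, which are scaled to transcript length and so allow levels of different genes to be compared, the 20 sialyltransferase genes looked up summed to 240.0 ± 8.45 TPM in IL-13 pre-treated cells at day 6, 239 ± 4.47 TPM in untreated cells at day 6, 387 ± 11.8 TPM in IL-13 pre-treated cells at day 0 and 286 ± 11.9 TPM in untreated cells at day 0 (SD, n = 4 each). The 9 described here held 99.0%, 98.7%, 99.7% and 99.1% of those sums, in the same order of groups. Of the other 11, St6galnac2 was the one with more than a few reads, at 47 to 119 counts a library. It was read from its entry St6galnac2_1, and a further entry, St6galnac2_2, was not summed. The remaining 10 lay at the limit of detection: 5 (St6gal2, St6galnac5, St8sia2, St8sia3 and St8sia4) had no count in any library, which allows at most 0.0113 CPM over the 16 libraries, and 5 (St6galnac1, St6galnac3, St8sia1, St8sia5 and St8sia6) had at most 14 counts in all. The intervals and limits given here cover counting error only. RNA for the enzymes that build polysialic acid, St8sia2 and St8sia4, and for the disialoganglioside enzyme St8sia1 thus came to at most 1 count in these libraries.

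The St3gal genes held most of the sum in every group, at 84.5% ± 0.546 in IL-13 pre-treated cells at day 6 and 83.3% ± 0.3 in untreated cells at day 6. At day 0 their share was 83.4% ± 0.527 in IL-13 pre-treated cells, against 77.2% ± 0.677 in untreated cells (SD, n = 4 each). The St6galnac genes held 13.8%, 14.8%, 15.2% and 19.8% in the groups from IL-13 at day 6 to untreated at day 0. St6gal1 never held more than 2.94% on average.

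**Figure D1:**
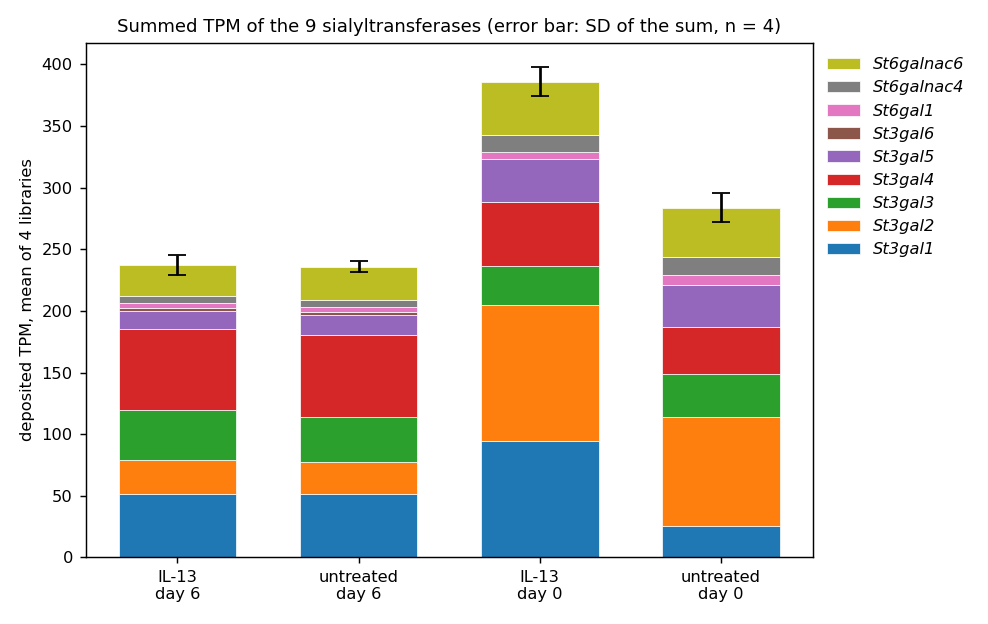
Summed deposited TPM (vertical axis) of the 9 sialyltransferases in the 4 groups, as means of 4 libraries stacked by gene, with the SD of the sum as error bar. The sum is 386 TPM in IL-13 pre-treated cells at day 0 and 284 TPM in untreated cells at day 0, and St3gal1 and St3gal4 take a larger part of the day 6 bars than of the untreated day 0 bar.

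The order of the levels changed between the stages. At day 6 St3gal4, which caps N-acetyllactosamine chains, came first, at 65.7 ± 3.02 TPM in IL-13 pre-treated and 66.6 ± 2.94 TPM in untreated cells. St3gal1, which caps the core of mucin-type O-glycans, was next, at 51.2 ± 6.69 TPM in IL-13 pre-treated and 51.4 ± 3.74 TPM in untreated cells. St3gal3, another enzyme of N-glycan and related chains, followed at 40.9 ± 2.42 TPM in IL-13 pre-treated and 36.9 ± 2.79 TPM in untreated cells. The libraries of these 3 genes did not overlap with one another within either day 6 group. Below them St3gal2, which acts on gangliosides and O-glycans, and St6galnac6, which acts on gangliosides and related lipids, overlapped in both day 6 groups, at 27.5 and 25.4 TPM in IL-13 pre-treated and 25.7 and 26.6 TPM in untreated cells. The lowest were St3gal5, St6galnac4, St6gal1 and St3gal6 in that order, of which St6galnac4 and St6gal1 overlapped in untreated cells.

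At day 0 St3gal2 led, at 110.0 ± 1.54 TPM in IL-13 pre-treated cells and 88.8 ± 6.19 TPM in untreated cells, apart from the next gene in both groups. In IL-13 pre-treated cells the next was St3gal1, at 94.4 ± 8.26 TPM. In untreated cells St3gal1 was only the sixth, at 25.1 ± 1.19 TPM. Between St3gal2 and St3gal1 in untreated cells stood St6galnac6, St3gal4, St3gal3 and St3gal5, at 39.7, 38.0, 35.3 and 33.8 TPM, and each of them overlapped with its neighbour in the order. St3gal6 was last in both day 0 groups, at 0.0485 ± 0.0424 TPM in IL-13 pre-treated and 0.115 ± 0.078 TPM in untreated cells.

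**Figure D2:**
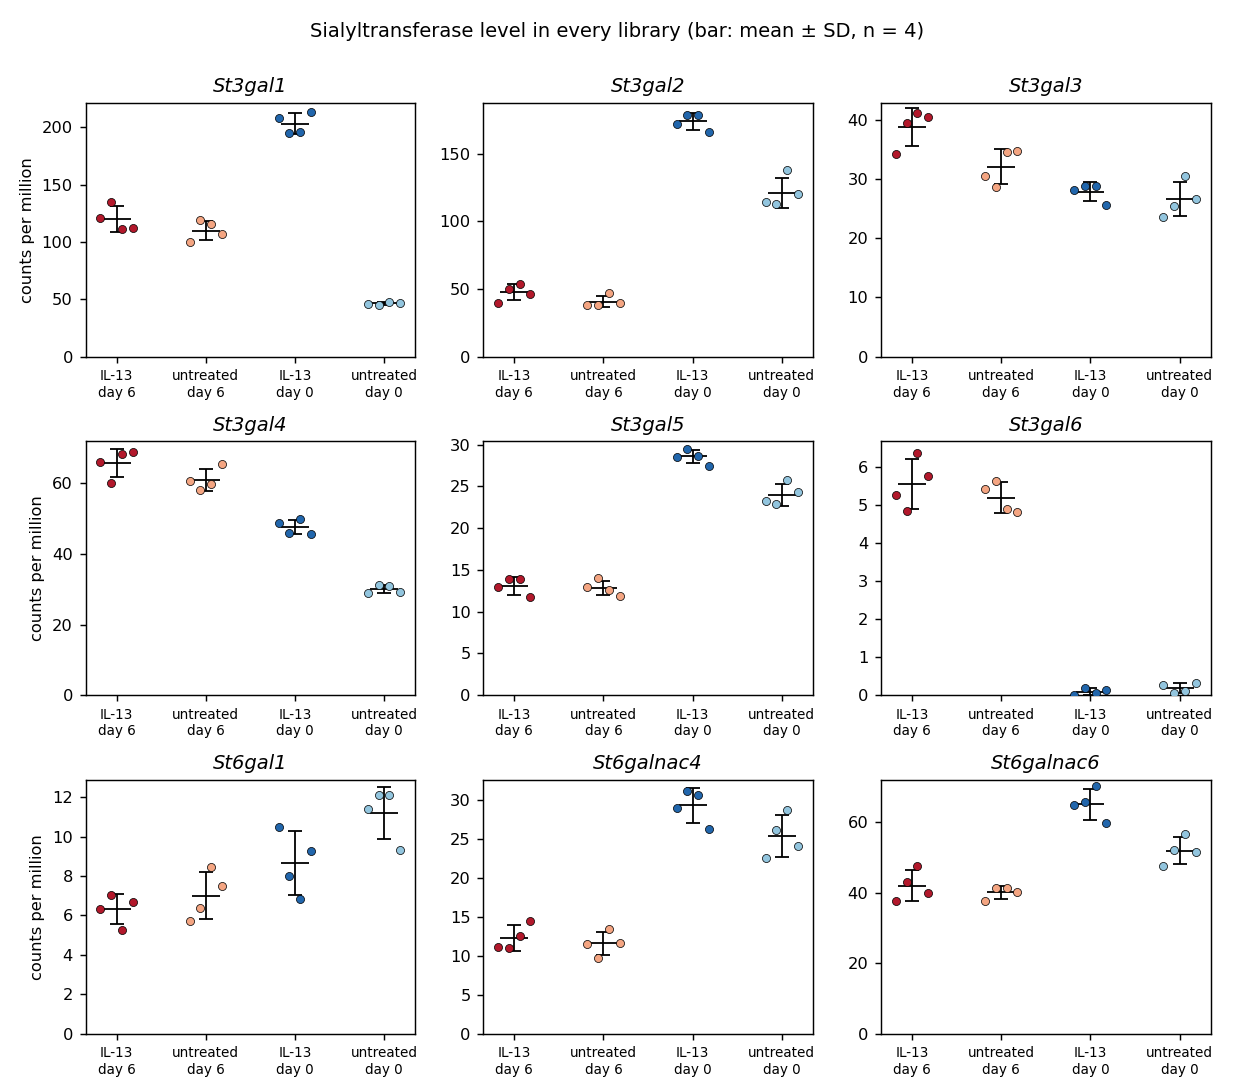
CPM (vertical axis, from 0) of each of the 9 sialyltransferases in every library, by group, with the mean and SD of 4 libraries drawn as bars. St3gal1 lies at 195 to 213 CPM in IL-13 pre-treated cells at day 0, apart from every other group, and St3gal6 is near 0 at day 0 and at 4.82 to 6.35 CPM at day 6.

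The first comparison asks how 16 h of IL-13 changed precursors before differentiation. St3gal1 stood out among the 9 with a 4.31-fold higher level after IL-13, and St3gal4 and St3gal2 were higher by smaller folds. Genes of the IL-13 response moved in these libraries: Cish and Socs1, feedback inhibitors of cytokine signalling, Ccl11, the chemokine eotaxin, and Il4ra rose, by 2.78, 2.12, 7.54 and 1.40 on the log2 scale (edgeR quasi-likelihood test, adjusted p = 2.03e-13, 8.84e-06, 6.23e-13 and 4.08e-11). Il13ra1 fell by 0.39 (edgeR adjusted p = 0.00397), and Stat6 did not pass the threshold. With the nuclear RNA covariate Cish, Ccl11 and Il4ra passed, while Socs1 (1.72, edgeR adjusted p = 0.115) and Il13ra1 (-0.112, edgeR adjusted p = 0.88) did not.

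St3gal1 had 208, 195, 196 and 213 CPM in IL-13 pre-treated cells at day 0, against 45.8, 45.5, 48.0 and 46.8 CPM in untreated cells. All IL-13 libraries were above all untreated libraries, and the log2 fold change was 2.11 ± 0.0527 (SE). Adjusted for the nuclear RNA index as a covariate it was again 2.11, and as a log2 ratio of the deposited TPM means it was 1.91. The gene (ENSMUSG00000013846) lies on chromosome 15, from 67102875 to 67176830 on the minus strand of mm10, and shares no exon base with another annotated gene.

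St3gal4 had 48.7, 46.0, 50 and 45.8 CPM with IL-13 at day 0, against 29.1, 31.2, 30.9 and 29.2 CPM in untreated cells. The groups did not overlap, the log2 fold change was 0.65 ± 0.0563, and with the covariate it was 0.557. As a log2 ratio of the deposited TPM means it was 0.451. St3gal2 had 172, 179, 179 and 166 CPM with IL-13, against 114, 113, 138 and 120 CPM without it. Its groups did not overlap either, but its log2 fold change of 0.503 ± 0.0605 came to 0.277 with the covariate and to 0.306 as a log2 ratio of the deposited TPM means. For St3gal1, St3gal4 and St3gal2 the higher level after IL-13 was thus of unequal size, from 1.42-fold for St3gal2 to 4.31-fold for St3gal1. Of the other St3gal genes, St3gal5 and St3gal3 came to 1.18-fold and 1.04-fold, and St3gal6 was not fitted.

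The remaining enzymes differed less. St6galnac6 and St3gal5 were higher in all IL-13 libraries than in all untreated ones, by 0.315 ± 0.062 and 0.235 ± 0.0635 on the log2 scale. With the covariate their values were 0.072 and 0.139. As log2 ratios of the deposited TPM means they came to 0.116 and 0.0367, and in TPM the libraries of both genes overlapped. St6galnac4, which adds a sialic acid to an already sialylated O-glycan core, overlapped between the groups (0.194 ± 0.0792, and -0.138 with the covariate), as did St3gal3 (0.0581 ± 0.0774, and -0.235 with the covariate). St6gal1, which caps N-glycans, was the only one of the 8 fitted with a lower mean CPM. It had 10.5, 7.98, 6.83 and 9.27 CPM with IL-13, against 11.4, 12.1, 12.1 and 9.32 CPM without it. Its log2 fold change was -0.386 ± 0.129 with overlapping libraries, and -0.43 with the covariate. In TPM its libraries did not overlap, at 4.21 to 6.98 TPM with IL-13 and 7.35 to 8.85 TPM without it. Mean TPM was also lower with IL-13 for St3gal3 (32.1 against 35.3) and St6galnac4 (14.3 against 14.4). St3gal6 was too low to be fitted at day 0, with 6 counts over the IL-13 and 14 over the untreated libraries, a ratio of 0.431 with a 95% counting interval of 0.136 to 1.19 (exact Clopper-Pearson).

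Of the 8 fitted at day 0, 5 passed an adjusted p of 0.05 upwards and 1 downwards (edgeR), where 23.7% of all 12274 tested genes passed upwards and 24.2% downwards. Their median log2 fold change was 0.275, and that of all tested genes was -0.0111. Total count scaling moved the median of all genes to -0.131 and split the genes called as 1682 higher and 4523 lower, against 2912 and 2969, and under it 4 of the 8 passed upwards and 1 downwards. With the covariate 2 of the 8 passed, and 720 of all tested genes did. At day 0 the preadipocyte and fibroblast markers moved with IL-13 too: 6 of 9 tested rose and none fell, and the summed level of the 10 was 21100 to 23100 CPM in IL-13 pre-treated and 14800 to 19600 CPM in untreated cells, with none of the 10 at 0. The defining Pdgfra averaged 370.0 ± 29.4 CPM in IL-13 pre-treated and 359 ± 16.2 CPM in untreated cells. The part of these markers in the differences was not tested.

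**Figure D3:**
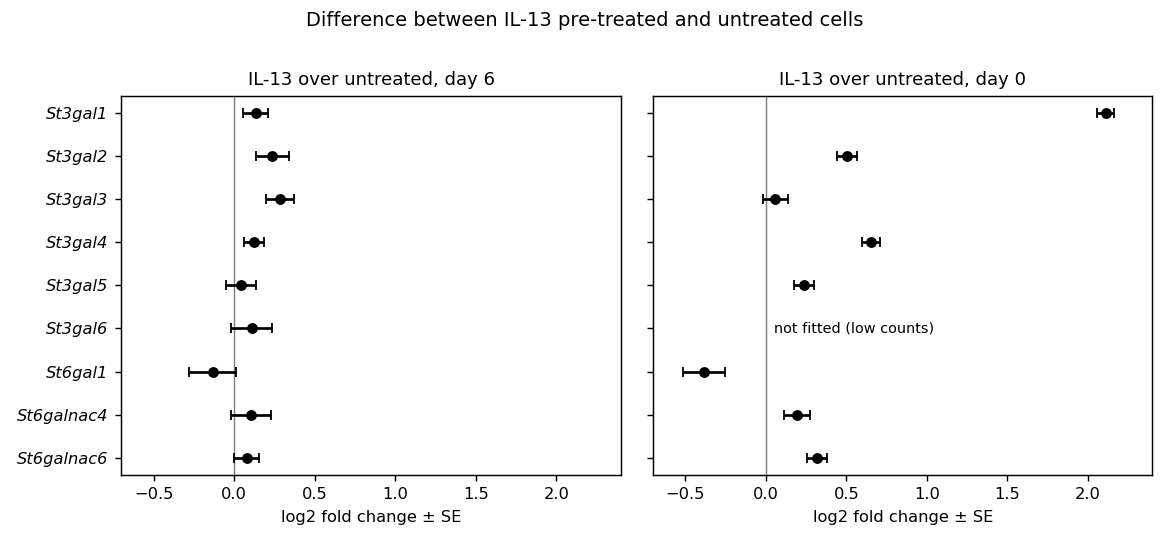
Log2 fold change of IL-13 pre-treated over untreated cells (horizontal axis, with SE) for each sialyltransferase, at day 6 on the left and day 0 on the right. At day 0 St3gal1 lies at 2.11 and the other fitted genes between -0.386 and 0.65, while at day 6 all 9 lie between -0.132 and 0.287.

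By day 6 the sialyltransferases of IL-13 pre-treated and untreated cells lay close together. So did many other genes: the median absolute log2 fold change over all tested genes was 0.138. All 9 overlapped between the groups, a count that was not made for all genes. St3gal1 had 121, 135, 111 and 112 CPM in IL-13 pre-treated cells, against 100, 119, 116 and 107 CPM in untreated cells, and its log2 fold change was 0.134 ± 0.0771. St3gal4 had 66.1, 60.2, 68.3 and 69.0 CPM with IL-13, against 60.6, 58.2, 59.8 and 65.5 CPM without it, a log2 fold change of 0.123 ± 0.0645. St3gal3 had the highest value of the 9, 0.287 ± 0.088, and the covariate turned it to -0.0858. St6gal1 had the lowest, -0.132 ± 0.145. In the edgeR fit 0 of the 9 passed an adjusted p of 0.05, where 2.21% of all 12352 tested genes passed upwards and 4.34% downwards (273 and 536 genes, or 53 and 1032 under total count scaling). At an unadjusted p under 0.05 there were 2 of the 9 and 3325 of all tested genes. DESeq2 called 1 of the 9 and 1426 of all genes. The median over the 9 was 0.11, against 0.00882 over all tested genes. Among the day 6 markers Adipoq, the adipocyte hormone adiponectin, rose by 0.296 ± 0.0707 with IL-13 (edgeR adjusted p = 0.0345), and the other 9 adipocyte markers did not pass. With the covariate no gene passed at day 6, Adipoq included, and without the 2 untreated libraries highest in nuclear RNA it did not pass either.

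The order of the family differed between the days, in most respects alike with and without IL-13. Day and deposited table cannot be told apart here either. Between day 6 and day 0, St3gal4, St3gal6 and St3gal3 were higher and St3gal2, St3gal5, St6galnac4, St6galnac6 and St6gal1 were lower in both the IL-13 pre-treated and the untreated series. St3gal1 was the exception: it was lower at day 6 in IL-13 pre-treated cells and higher at day 6 in untreated cells. The 2 series were fitted together and share no library.

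St3gal6, which caps N-acetyllactosamine chains and helps to form selectin ligands, went furthest. It had 5.26, 4.84, 6.35 and 5.77 CPM in IL-13 pre-treated cells at day 6, against 0, 0.19, 0.0594 and 0.128 CPM at day 0. In untreated cells it had 5.41, 5.64, 4.88 and 4.82 CPM at day 6, against 0.256, 0.0616, 0.115 and 0.321 CPM at day 0. All day 6 libraries were above all day 0 libraries. From summed counts, the ratio of day 6 to day 0 was 58.4 in IL-13 pre-treated cells (95% interval 26.5 to 160.0) and 24.8 in untreated cells (14.6 to 45.8). The gene lies on chromosome 16, and 26% of its exon bases are shared with Dcbld2 on the other strand. Whether reads were counted by strand is not stated. Dcbld2 averaged 96.0 ± 4.72 and 101 ± 6.18 CPM in IL-13 pre-treated and untreated cells at day 6, against 103 ± 8.31 and 106 ± 2.67 CPM at day 0.

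St3gal4 had 60.2 to 69.0 CPM in IL-13 pre-treated cells at day 6, against 45.8 to 50 CPM at day 0, and 58.2 to 65.5 CPM in untreated cells at day 6, against 29.1 to 31.2 CPM at day 0. The log2 differences were 0.468 ± 0.058 with IL-13 and 1.02 ± 0.0595 without it. In both series the day 6 libraries lay above all day 0 libraries, with a larger gap in untreated cells. On the other strand 4930581F22Rik shares 14.1% of the exon bases of St3gal4, and had at most 4.76 CPM in any library. St3gal3 was higher by 0.474 ± 0.0843 and 0.273 ± 0.0848, with overlapping libraries in the untreated series. As log2 ratios of the deposited TPM means these values came to 0.349 with IL-13 and only 0.0642 in untreated cells.

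St3gal2, the leading gene at day 0, was the one that was lowered most. It had 40.0, 50, 53.6 and 46.7 CPM in IL-13 pre-treated cells at day 6, against 172, 179, 179 and 166 CPM at day 0. In untreated cells it had 38.0, 38.3, 46.8 and 39.6 CPM at day 6, against 114, 113, 138 and 120 CPM at day 0. Day 6 thus held 0.273 of the day 0 level with IL-13 and 0.335 of it without. St6galnac4 (-1.25 ± 0.105 with IL-13, -1.13 ± 0.106 untreated) and the GM3 synthase St3gal5 (-1.12 ± 0.0746 with IL-13, -0.903 ± 0.0749 untreated) were lower by about 1 on the log2 scale, again with no overlap. St3gal5 had 11.7 to 13.9 CPM in IL-13 pre-treated cells at day 6, against 27.5 to 29.5 CPM at day 0, and 11.9 to 14.0 CPM in untreated cells at day 6, against 22.9 to 25.8 CPM at day 0.

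St6galnac6 was lower by smaller steps, -0.636 ± 0.0734 with IL-13 and -0.37 ± 0.0738 untreated. It is the direct neighbour of St6galnac4 on chromosome 2: St6galnac4 ends at 32599698 and St6galnac6 starts at 32599709 on the same strand, 10 bases between them, and the exons of the pair do not overlap in the annotation. St6gal1 had 5.28 to 7.01 CPM in IL-13 pre-treated cells at day 6, against 6.83 to 10.5 CPM at day 0 (-0.449 ± 0.146, overlapping), and 5.73 to 8.44 CPM in untreated cells at day 6, against 9.32 to 12.1 CPM at day 0 (-0.678 ± 0.141, not overlapping). Its gene starts 66711 bases past the end of Adipoq on chromosome 16. Adipoq averaged 1690 ± 134 and 1390 ± 74.9 CPM in IL-13 pre-treated and untreated cells at day 6, against 0.199 ± 0.0908 and 0.0822 ± 0.0262 CPM at day 0, so these neighbours moved in opposite directions.

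St3gal1 parted the series. It had 121, 135, 111 and 112 CPM in IL-13 pre-treated cells at day 6, against 208, 195, 196 and 213 CPM at day 0, a log2 difference of -0.758 ± 0.0652. In untreated cells it had 100, 119, 116 and 107 CPM at day 6, against 45.8, 45.5, 48.0 and 46.8 CPM at day 0, a log2 difference of 1.25 ± 0.0678. Every day 6 library was below every day 0 library with IL-13 and above every one without it.

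All 9 passed an adjusted p of 0.05 in both day comparisons (edgeR). With IL-13 3 were higher and 6 lower, where 40.6% of the 13157 tested genes were higher and 40.3% lower. In untreated cells 4 were higher and 5 lower, where 41.5% were higher and 39% lower. With so many genes called, these counts say little about the family. The median over the 9 was -0.636 with IL-13 and -0.37 without it, against 0.00122 and 0.0382 over all tested genes.

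**Figure D4:**
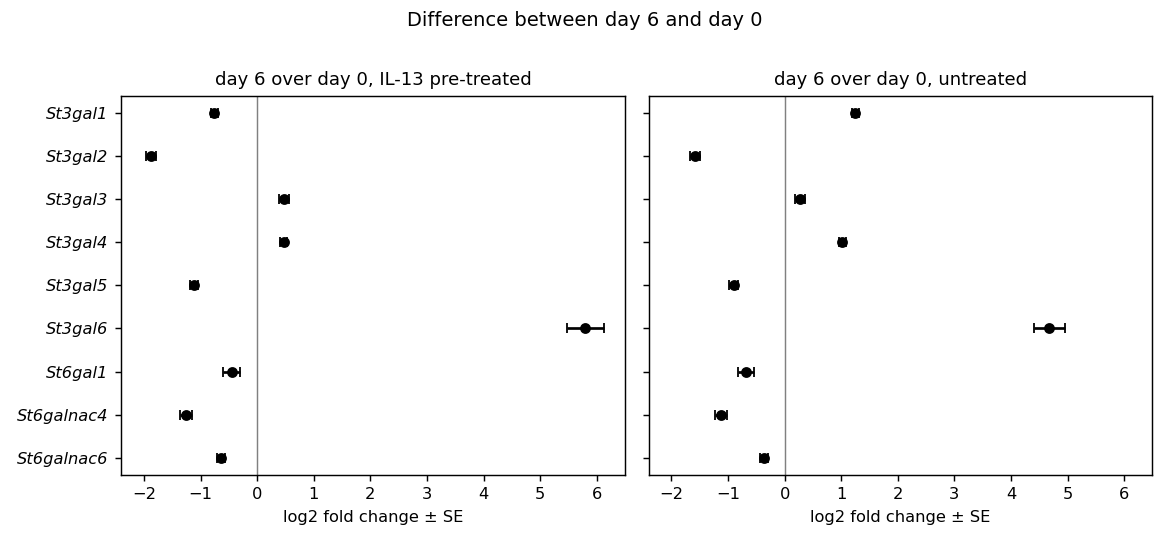
Log2 fold change of day 6 over day 0 (horizontal axis, with SE) for each sialyltransferase, in IL-13 pre-treated cells on the left and untreated cells on the right. St3gal1 lies at -0.758 on the left and 1.25 on the right, and the other 8 keep their direction.

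The IL-13 difference at day 6 minus that at day 0 was -2.0 ± 0.094 on the log2 scale for St3gal1 and -0.553 ± 0.0829 for St3gal4. These 2 of the 9 passed, both lower, where 3.12% of all tested genes were higher and 4.95% lower (410 and 651 genes, or 516 and 498 under total count scaling). With the covariate 4 of the 9 passed, all lower, where 799 of all tested genes were higher and 1279 lower. The other 7 did not pass and ranged from -0.293 ± 0.119 for St3gal2 to 1.11 ± 0.626 for St3gal6. The median over the 9 was -0.22, against -0.0242 over all tested genes. For St3gal1 the value stayed between -2.02 and -1.92 over all 24 alternatives, the covariate among them (-2.01).

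Promoter sequences are shown for 2 of the genes that were higher at day 6 in both series, St3gal4 and St3gal6, and for 2 that were lower in both, St3gal5 and St6galnac4, with 250 bases before and 50 after the start site, from RefSeq on GRCm38.p6, the build also called mm10. RefSeq windows were at hand for 7 of the 9 genes, 10 windows in all, and not for St3gal1 and St3gal2. Capitals mark each GC box (GGGCGG on either strand, neighbours may overlap), a letter pattern found in 35.7% of all 32851 windows. In order they are St3gal4 at chr9:35116815-35117114 on the minus strand, St3gal6 at its inner start (chr16:58523377-58523676, minus), St3gal6 at its outer start (chr16:58524204-58524503, minus), St3gal5 at chr6:72097358-72097657 on the plus strand and St6galnac4 at chr2:32586828-32587127 on the plus strand.
St3gal4: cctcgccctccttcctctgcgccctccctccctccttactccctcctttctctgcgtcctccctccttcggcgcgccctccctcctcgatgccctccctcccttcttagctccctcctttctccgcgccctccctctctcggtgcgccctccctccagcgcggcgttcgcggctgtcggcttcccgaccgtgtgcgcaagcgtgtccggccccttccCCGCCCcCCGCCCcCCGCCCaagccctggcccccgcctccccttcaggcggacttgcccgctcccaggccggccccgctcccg
St3gal6 inner start: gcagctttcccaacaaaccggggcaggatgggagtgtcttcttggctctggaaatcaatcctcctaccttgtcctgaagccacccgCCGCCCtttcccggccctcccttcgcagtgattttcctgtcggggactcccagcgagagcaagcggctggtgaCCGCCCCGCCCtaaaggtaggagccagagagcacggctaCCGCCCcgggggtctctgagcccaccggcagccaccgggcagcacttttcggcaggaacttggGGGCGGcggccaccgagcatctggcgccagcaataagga
St3gal6 outer start: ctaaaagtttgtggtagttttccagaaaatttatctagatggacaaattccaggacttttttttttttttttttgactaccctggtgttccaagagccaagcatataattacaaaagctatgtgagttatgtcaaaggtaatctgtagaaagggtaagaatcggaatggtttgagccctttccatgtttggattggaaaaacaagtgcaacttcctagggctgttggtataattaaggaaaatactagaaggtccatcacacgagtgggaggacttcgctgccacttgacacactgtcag
St3gal5: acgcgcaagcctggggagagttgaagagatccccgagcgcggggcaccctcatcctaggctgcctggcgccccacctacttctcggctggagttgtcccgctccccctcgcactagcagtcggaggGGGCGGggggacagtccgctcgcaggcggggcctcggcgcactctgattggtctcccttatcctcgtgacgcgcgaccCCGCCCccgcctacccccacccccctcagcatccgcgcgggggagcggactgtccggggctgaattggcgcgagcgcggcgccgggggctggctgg
St6galnac4: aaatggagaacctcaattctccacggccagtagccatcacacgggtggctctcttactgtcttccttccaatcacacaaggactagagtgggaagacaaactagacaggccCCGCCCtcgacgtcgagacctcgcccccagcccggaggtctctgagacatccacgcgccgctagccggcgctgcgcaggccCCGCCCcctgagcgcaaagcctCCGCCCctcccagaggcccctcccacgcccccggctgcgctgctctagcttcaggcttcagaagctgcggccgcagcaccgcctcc

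Both directions of change were thus found among the GC-rich windows shown. St3gal4 had a GC content of 74.0% with 31 CpG pairs and 3 GC boxes, and St6galnac4, lower at day 6, had 65.7%, 23 and 3. St3gal6 had 64.7%, 20 and 5 at its inner start, and 38.7%, 3 CpG pairs and no GC box at its outer start, where the median over all windows was 7 CpG pairs. The windows not shown differed. St6galnac6, lower at day 6, had 52.0% with 2 CpG pairs and no GC box. St6gal1, also lower, had 48.0%, 50.7% and 49.7% in its windows, with 7, 10 and 6 CpG pairs. St3gal3, higher at day 6, had 70.0% with 26 CpG pairs and 2 GC boxes. None of the 10 windows held the STAT patterns TTCNNNGAA or TTC and GAA with 4 free letters between, which 8.3% and 6.95% of all windows hold, or the TATAAA pattern, which 13.6% hold. These letter matches are a description of these windows only.

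The pathway around the enzymes was read from 7 lists that hold none of the 9 described genes, 91 genes in all, and here the edgeR test with adjustment over all tested genes applies. At day 0 28 of 62 tested genes passed with IL-13, 12 upwards and 16 downwards, where 47.9% of all tested genes passed, so the share in the lists was near that of all genes, with a median log2 fold change of -0.104 against -0.0111 over all tested genes. Adjusted for the nuclear RNA index 6 passed, and without the 2 untreated libraries highest in it 18 did. At day 6 2 of 58 tested passed: Gm2a, the GM2 activator protein, was higher (0.259 ± 0.0693, edgeR adjusted p = 0.0476) and Galnt11, which starts O-glycans, was lower (-0.382 ± 0.087, edgeR adjusted p = 0.0306), where 6.55% of all tested genes passed. Neither passed with the covariate or without those 2 libraries, and in all Gm2a lost its call in 10 and Galnt11 in 8 of 15 alternative tests.

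Of 12 tested genes for making and moving sialic acid 5 rose with IL-13 at day 0, none fell and 7 did not pass, with a list median of 0.0953, where 23.7% of all tested genes rose. With the covariate Gfpt2 alone of the 5 passed. Gfpt2, which feeds the hexosamine pathway, averaged 45.4 ± 1.38 CPM in IL-13 pre-treated and 22.5 ± 1.48 CPM in untreated cells (log2 fold change 0.999 ± 0.0622, edgeR adjusted p = 6.33e-09). Nans, the sialic acid synthase, averaged 98.2 ± 7.0 CPM with IL-13 and 75.4 ± 8.57 CPM without it (0.367 ± 0.0709, edgeR adjusted p = 0.000792), but came to 0.0171 with the covariate. Gne, the entry enzyme of the route, Nagk and Pgm3 rose by 0.314, 0.173 and 0.212 (edgeR adjusted p = 0.0018, 0.00828 and 0.0173), and none of them passed with the covariate. Gfpt2 passed in all 15 alternative tests. Nans and Pgm3 share 29.6% and 28.3% of their exon bases with Trim14 and Dopey1 on the other strand.

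Of 6 tested genes that remove or recycle sialic acid 2 fell and none rose at day 0, where 24.2% of all tested genes fell: Slc17a5, the lysosomal exporter, at -0.385, and Casd1, the sialic acid O-acetyltransferase, at -0.279 (edgeR adjusted p = 0.00206 and 0.0164). The first did not pass and the second changed sign with the covariate. The sialidases Neu1 and Neu3 did not pass. Outside the 9 genes St6galnac2, another enzyme of O-glycans, was lower after IL-13, at 2.97 ± 0.126 CPM against 5.05 ± 0.636 CPM in untreated cells (-0.781 ± 0.136, edgeR adjusted p = 0.000337). It came to -0.617 with the covariate and no longer passed (adjusted p = 0.291). These are values of the entry St6galnac2_1. A further entry, St6galnac2_2, shares 6.61% of its exon bases on the same strand and was not read. On the other strand 1810032O08Rik covers 8.58% of the exons of St6galnac2_1, and averaged 1.08 ± 0.0828 CPM with IL-13 and 2.31 ± 0.788 CPM without it.

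Among the enzymes that build the acceptor chains, the ganglioside list had 2 of 14 tested that rose and 3 that fell at day 0, a share called below the 47.9% of all tested genes. B4galt5, which makes the lactosylceramide that St3gal5 sialylates, averaged 146 ± 3.66 CPM in IL-13 pre-treated and 75.4 ± 6.18 CPM in untreated cells (0.943 ± 0.0561, edgeR adjusted p = 3.48e-09). Hexa, B4galnt1 and Gba2 had log2 fold changes of -0.285, -0.278 and -0.356 and fell (edgeR adjusted p = 0.000713, 0.00951 and 0.0199). Hexa passed with the covariate too (edgeR adjusted p = 0.044), B4galnt1 did not, and Gba2 changed sign to 0.219 and did not pass. B4galnt1 and Hexa share 20.7% and 12.8% of their exon bases with Slc26a10 and Tmem202 on the other strand. In the N-glycan list 4 of 14 rose and 4 fell. Mgat1, which opens the way to complex N-glycans, rose by 0.635 ± 0.0657, and Mgat3, which adds the bisecting sugar, fell by 0.589 (edgeR adjusted p = 2.36e-06 and 1.04e-05). Mgat4b, B4galt2 and Mgat2 were the other genes that rose, by 0.276, 0.304 and 0.145, and Mgat5, Mgat4a and B4galt1 the others that fell, at -0.31, -0.535 and -0.228. With the covariate Mgat1 and Mgat3 passed and these 6 did not, and B4galt2 (-0.102) and Mgat2 (-0.0187) changed sign. B4galt2 shares 28.2% of its exon bases with Ccdc24 on the same strand, so its values are uncertain.

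In the mucin-type O-glycan list, whose core St3gal1 caps, 1 of 14 tested rose and 5 fell at day 0, with a median of -0.235. Gcnt4 and Gcnt1, which branch the core, and Galnt18, C1galt1 and Galnt7 fell, with log2 fold changes of -1.14, -1.06, -0.465, -0.338 and -0.366 (edgeR adjusted p = 4.08e-08, 0.00733, 7.7e-05, 0.0021 and 0.0103). C1galt1 makes the core itself, the very acceptor of St3gal1, and averaged 23.6 ± 1.47 CPM in IL-13 pre-treated and 29.5 ± 2.37 CPM in untreated cells. Galnt1 rose by 0.203. With the covariate Gcnt4 kept a value of -0.918 (adjusted p = 0.000607). The other 5 did not pass with it: Gcnt1 came to -0.0773, Galnt18 to -0.415, C1galt1 to -0.107, Galnt7 to -0.0736 and Galnt1 to 0.162. Gcnt4 shares 10.5% of its exon bases with Gm48597 on the other strand.

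**Figure D5:**
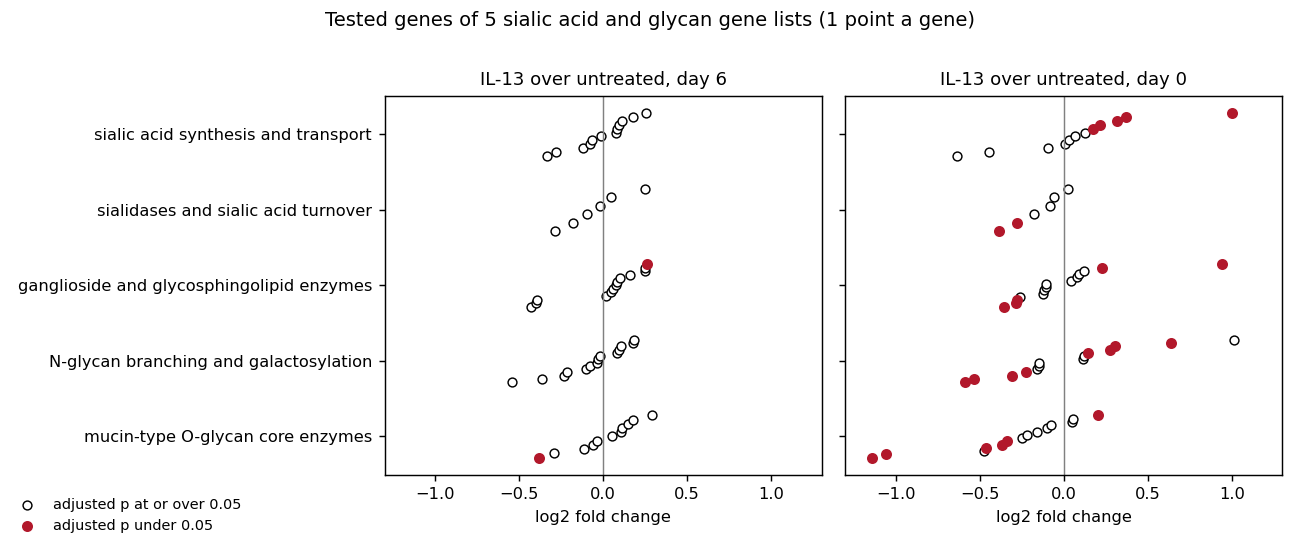
Log2 fold change of IL-13 pre-treated over untreated cells (horizontal axis) for each tested gene of 5 lists, at day 6 on the left and day 0 on the right, with red points for an edgeR adjusted p under 0.05 and open points for the rest. At day 0 the points run from -1.14 to 1.01 with red ones on both sides, and at day 6 from -0.54 to 0.29 with 2 red ones.

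Most pathway genes, like most genes, differed between the days. Between day 6 and day 0, 56 of 63 tested genes passed in IL-13 pre-treated cells (15 higher, 41 lower) and 56 of 63 in untreated cells (14 higher, 42 lower), where 80.8% and 80.5% of all tested genes passed. The list medians were -0.68 and -0.651, against 0.00122 and 0.0382 over all tested genes. The ganglioside enzymes fell together with St3gal5: 12 of 14 fell in each series. B4galnt1, the GM2 synthase, fell by 3.48 with IL-13 and by 3.34 in untreated cells, and B4galt5 fell by 3.25 with IL-13 and fell by 2.33 without it (edgeR adjusted p = 4.67e-16, 3.3e-16, 2.44e-17 and 6.19e-15). B4galt6, its partner in making lactosylceramide, fell by 2.73 with IL-13 and by 2.83 without it (edgeR adjusted p = 3.01e-15 and 1.47e-15). Gm2a rose in both series, by 1.27 and 1.08, and Psap in IL-13 pre-treated cells by 0.202 (edgeR adjusted p = 9.74e-13, 1.55e-11 and 0.00978).

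In the O-glycan list 9 of 14 fell and 4 rose with IL-13, and 10 fell and 3 rose without it. Among those 10 is Galnt2 (-3.46, edgeR adjusted p = 0.00555). It shares 90.0% of its exon bases with Gm20388 on the same strand, so its values are uncertain. Galnt10 fell by 2.54 with IL-13 and fell by 2.58 without it (edgeR adjusted p = 2.7e-17 and 2.32e-17). In the N-glycan list 8 fell and 3 rose with IL-13 and 8 fell and 4 rose without it. Man2a1, a trimming mannosidase, fell by 2.32 with IL-13 and by 2.41 without it (edgeR adjusted p = 1.17e-15 and 6.44e-16). Of the sialic acid synthesis list 7 of 12 fell and 3 rose in each series. Renbp fell by 2.72 with IL-13 and fell by 2.62 without it, and Npl, which breaks sialic acid down, rose by 2.77 and 2.36 (edgeR adjusted p = 6.61e-16, 9.61e-16, 9.7e-14 and 4.74e-13). Npl averaged 10.4 ± 0.845 and 10.5 ± 0.812 CPM in IL-13 pre-treated and untreated cells at day 6, against 1.51 ± 0.199 and 2.05 ± 0.393 CPM at day 0. Of the turnover list 4 of 6 fell and Neu1, the lysosomal sialidase, rose in each series, by 0.496 with IL-13 and 0.571 without it. Ctsa, which protects Neu1 in the lysosome, fell by 0.786 with IL-13 and fell by 1.09 without it (edgeR adjusted p for Neu1 0.000161 and 3.1e-05, for Ctsa 8.18e-10 and 3.81e-12). Ctsa shares 17.4% of its exon bases with Neurl2 and Pltp on the other strand.

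Of 12 genes for lectins that bind sialic acid, 2 were high enough to be tested across the days, and they exchanged places. Siglec1, known as a macrophage receptor for sialic acid in the bond made by St3gal enzymes, had 29.3 to 31.6 CPM in IL-13 pre-treated cells and 23.7 to 31.3 CPM in untreated cells at day 6. At day 0 it had 16 counts over the 4 libraries of each group. From summed counts the day 6 level was 121 times that of day 0 with IL-13 (95% interval 74.1 to 211) and 116 times without it (71.0 to 203). Siglecg, known from B cells, went the other way, with 9 counts over the IL-13 and 8 over the untreated libraries at day 6, against 25.3 to 29.7 CPM with IL-13 and 35.5 to 38.6 CPM in untreated cells at day 0. Both passed in both series (edgeR adjusted p = 1.41e-19 and 1.4e-19 for Siglec1, 1.56e-18 and 4.35e-19 for Siglecg). Neither gene shares an exon base with another annotated gene. The 7 leukocyte markers summed to 2.91 to 4.09 CPM in IL-13 pre-treated and 1.74 to 3.48 CPM in untreated cells at day 6, against 9.35 to 11.9 and 6.72 to 9.1 CPM at day 0, with Ptprc and Adgre1 at 0 at day 6 while Siglec1 was high. Siglecg also fell with IL-13 at day 0, by 0.386 (edgeR adjusted p = 0.000352), but came to -0.237 with the covariate and did not pass (edgeR adjusted p = 0.432).

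In 8 of 63 tested pathway genes the IL-13 difference itself differed between the days, where 8.06% of all tested genes did. Gfpt2, B4galt5, Mgat1, B4galt2 and Pgm3 had a lower one at day 6 than at day 0 and Gcnt4, Mgat3 and Hexa a higher one. The largest in size were Gcnt4 (1.16 ± 0.175), Gfpt2 (-0.929 ± 0.116) and B4galt5 (-0.924 ± 0.137), with edgeR adjusted p = 0.000109, 1.07e-05 and 9.45e-05. These 3 passed in all 23 alternative tests. Pgm3, B4galt2 and Mgat1 lost their call in 14, 12 and 9 of the 23, and Hexa and Mgat3 in 1 each, without the 2 untreated libraries per day highest in nuclear RNA. The list median was 0.0396, against -0.0242 over all tested genes.

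For the 6 sialyltransferases whose group means spanned at least 1 on the log2 scale, the tested genes with the most similar profile over the 16 libraries were looked up by Pearson's r of log2 CPM, as a description that rests largely on the 4 group means. Closest to St3gal1 were Il4ra (r = 0.982), Pmm1 (0.981) and Ell2 (0.976). Il4ra averaged 68.4 ± 4.77 and 60.5 ± 4.91 CPM in IL-13 pre-treated and untreated cells at day 6, against 86.1 ± 3.21 and 32.4 ± 2.23 CPM at day 0, the same order of groups as for St3gal1. Closest to St3gal4 were Chst11, Hacd2 and Dtnbp1 (0.992, 0.99 and 0.989), and to St3gal6 Acp5, Bcas1 and Dusp4 (0.996, 0.995 and 0.994). St3gal2 was nearest to Slc38a10, Cd248 and Gnai2 (0.998, 0.998 and 0.997), St3gal5 to Rab4b, C1qtnf6 and Adamts2 (0.995, 0.994 and 0.993), and St6galnac4 to Pfn1, Cfl1 and Adamtsl4 (0.989, 0.988 and 0.987).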

How the data were processed

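Libraries were made with a stranded mRNA kit from 2 ug of RNA, per the labels' protocols. The authors deposited, for each day, a table of 41325 genes with total read counts per gene and library and TPM values, per the file headers. The genome build was mm10, per the submitters' processing notes. The aligner, the counter and whether it read strand were not given in the sources used here. Deposited counts were whole numbers with no normalization. The deposited TPM values served for levels between genes, for shares and for the TPM ratios between groups given as an alternative. Other columns were not used.

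Columns were matched to samples by name. CPM was computed from the counts with TMM-scaled totals over all 16 libraries. Fold changes and p-values came from edgeR 4.0.16 (R 4.3.3), a robust quasi-likelihood fit per day for IL-13 and over all 16 libraries for the rest, with filterByExpr (minimum count 10, minimum total 15) and Benjamini-Hochberg adjustment over all tested genes; a gene passed under 0.05. The SE was derived from the F statistic. Log2 CPM used a prior count of 2. Alternatives were total count scaling, relative log expression factors, DESeq2 1.42.0, no filter, a replicate block, the nuclear RNA index as a covariate, leaving out the 2 untreated libraries per day highest in that index, leaving out each library, and TPM ratios. The script was tested on simulated data. No library pair of a group agreed within counting noise. Shares of a count of 0 used a limit of 3 counts.

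The 9 genes and all lists were chosen with earlier results of these data known. Named were the 9 genes, the 2 genes with the smallest p per list and comparison, genes completing counts of 5 or fewer and the check genes; Gne, Nagk, Npl with its levels, C1galt1, Psap, Pdgfra and Adipoq were added for counts or context. The values of 1 ganglioside gene that the lists count are not reported here.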

Additional observations from a re-analysis of the deposited data

Results flagged for a closer look

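No library stood apart from the other 3 of its group in any of 36 sets of 4 (9 genes in 4 groups), by Dixon's ratio of gap to range, which chance passes in about 1 of 20 sets. For St3gal1 every library was lower at day 6 than at day 0 in IL-13 pre-treated cells and higher in untreated cells, and the IL-13 difference at day 6 minus day 0 was -2.0; it is a description without a p-value, since the counts chose the gene. Among pathway genes the IL-13 difference changed between the days by an interaction term of the edgeR fit for Gfpt2 (-0.929), Pgm3 (-0.569), B4galt5 (-0.924), Hexa (0.362), Mgat1 (-0.487), Mgat3 (0.486), B4galt2 (-0.563) and Gcnt4 (1.16), on the log2 scale.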

How the results depend on the processing

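Over 776 fold changes of the sialyltransferases under an alternative, none that passed changed direction and 67 moved by more than the SD between libraries, 26 with TPM ratios, 18 with the nuclear RNA covariate and 10 under total count scaling. IL-13 changed 5881 genes at day 0 (2912 higher, 2969 lower) and 809 at day 6 (273 higher, 536 lower), and total count scaling split them as 1682 and 4523, and as 53 and 1032. With the covariate the counts were 720 at day 0, 0 at day 6 (1094 at an unadjusted p under 0.05) and 2078, against 1061, for the difference between the days. Without the 2 untreated libraries per day highest in nuclear RNA they were 3485, 2 and 545. DESeq2 gave 1426 at day 6. Pathway genes under the covariate were 6 of 28 at day 0, 0 of 2 at day 6 (4 unadjusted) and 13 against 8 for the difference. Without those libraries they were 18, 0 (4 unadjusted) and 3, DESeq2 gave 6 at day 6 and 12 for the difference, and relative log expression factors gave 1 at day 6. Leaving out 1 library gave 60 to 2328 genes at day 6 and 0 to 14 pathway genes, and 5 to 11 pathway genes for the difference. At day 6 the count was 2328 without IL-13 library 1, and 60, 62, 102, 205, 320 and 523 without untreated 2, IL-13 2, untreated 1, IL-13 3, IL-13 4 and untreated 3. The cause was not tested.

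With the covariate the sign turned at day 0 for Gba2 (0.219), Mgat2 (-0.0187), B4galt2 (-0.102) and Casd1 (0.114). At day 6 it turned for Il4ra (-0.154), Cish (-0.0568), Mgat4b (-0.104), Nans (-0.325), Pgm3 (0.304), Ctsa (-0.149) and Casd1 (0.121), none of which had passed. For Siglec1, near 0 in the difference between the days (0.00136), leaving out 1 library gave -0.135 to 0.196, among them -0.111 and -0.012.

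Replicate numbers were not taken to pair the libraries, because not every pair's correlation was over 0.1. Correlations of deviations between same-numbered libraries were -0.0431 to 0.18 at day 0 and 0.00611 to 0.215 at day 6, and of the IL-13 libraries 3 of 4 at day 0 and 2 of 4 at day 6, and of the untreated ones 3 of 4 at either day, were closest to their own number, a hint from the data and not the design. A replicate block gave 2812 genes and 14 pathway genes at day 6, and 1608 genes and 12 pathway genes for the difference, with 2 and 4 of the 9 sialyltransferases among them.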
